A study of Mus musculus with 12 samples.

Results

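The 10 genes described here serve the breakdown of branched-chain amino acids (BCAAs) in mitochondria: Bcat2, Bckdha, Bckdhb, Dbt, Ppm1k, Ivd, Mccc1, Hibadh, Aldh6a1 and Klf15. They were chosen by name. An H3K27ac region was counted for a gene where it overlapped the gene body extended by 5 kb at each end, called the window below, in the GENCODE M21 annotation of GRCm38. By this rule the 10 genes, of 21938 protein-coding genes, held 33 of the 53754 regions listed for control cardiomyocytes (CMs) and 34 of the 45521 regions listed for RIP140-null CMs, called KO below.

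RIP140, encoded by Nrip1, is a corepressor of nuclear receptors, and the comparison asked how H3K27ac, an acetylated form of histone H3 found at active promoters and enhancers, differed in CMs without it. KO mice were Nrip1 f/f Cre+ (csNrip1-/-), with Cre driven by the cardiac Nkx2.5 promoter, and their littermate controls were Nrip1 f/f Cre-, so that both genotypes carried the floxed allele. CMs of mice aged 10 to 12 weeks were obtained by Langendorff perfusion and enriched by slow centrifugation, and each CUT&RUN experiment, in which an antibody directs a nuclease to chromatin, used 200000 cells. Each genotype had 3 H3K27ac samples and 3 IgG samples as background. The Nkx2.5 promoter is active from early heart development, so a lasting and a recent absence of RIP140 cannot be told apart, and neither can the absence of RIP140 and the presence of Cre.

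The deposited data held 1 merged list of regions per genotype, made of regions found in at least 2 of 3 replicates. Each value below is therefore 1 value per genotype with no replicate error, no test was possible, and the depth behind a region is unknown. A region found in 1 list may have been present in 1 replicate of the other genotype. Regions with 1 bp or more in common between the lists are called shared, and the rest KO-only or control-only.

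BCAAs, namely leucine, isoleucine and valine, enter breakdown when the mitochondrial aminotransferase BCAT2 removes their amino group. The branched-chain α-keto acid dehydrogenase (BCKDH) complex then commits the keto acids to oxidation. A kinase switches the complex off by phosphorylation and the phosphatase PPM1K switches it on, after which separate arms for the 3 amino acids deliver acetyl-CoA and propionyl-CoA. The heart oxidizes BCAAs as a minor fuel, and the transcription factor KLF15 is known to control several genes of the pathway there.

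The KO list held fewer but wider regions than the control list, with median widths of 2291 bp and 1846 bp, and covered 154.2 Mb against 151.3 Mb. Across the genome 21.5% of KO regions were KO-only and 29.5% of control regions were control-only. In the last exon of Nrip1, which holds the coding sequence, 2904 bp were covered in the control list and 0 bp in the KO list. This exon lies between the loxP sites and is removed by Cre, so the 0 bp cannot be read as a difference in the mark. The transcription start site (TSS) lay in a region in both lists for 8 of 8 CM marker genes, 0 of 5 fibroblast markers and 0 of 5 macrophage markers. Endothelial markers had 3 of 5 TSSs covered in both lists, without Pecam1 and Cdh5, and smooth muscle markers 1 of 3, without Cnn1 and Tagln. The length covered over the endothelial markers was 68605 bp in control and 76248 bp in KO, that over the CM markers 128724 bp and 155400 bp, that over the macrophage markers 1173 bp and 4128 bp, that over the smooth muscle markers 10985 bp and 10622 bp, and that over the fibroblast markers 1560 bp and 834 bp. The part of other cell types in the results below was not tested, and in these bulk samples a smaller share of marked cells and less mark per cell cannot be told apart.

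All 10 genes had their TSS, here the 5′ end of the gene, inside an H3K27ac region in both lists, whereas 41.1% of all protein-coding genes did. The regions over these TSSs were 2122 to 11467 bp wide in the control list and 2369 to 7930 bp wide in the KO list, with medians of 3232 bp and 3991 bp. Over all genes with the TSS covered in both lists, the medians were 2647 bp and 2901 bp. Of the 33 control regions at the 10 genes, 26 were shared and 7, or 21.2%, were control-only. Of the 34 KO regions, 29 were shared and 5, or 14.7%, were KO-only. Both shares lay below those of the whole lists, 29.5% and 21.5%. Each of the 10 genes, however, adds a region over its TSS to both lists, and these are shared of necessity. No difference from the whole lists can therefore be read from these shares. By definition, none of the 12 genotype-only regions could lie over the 5′ end of its gene, which was covered in both lists. Of the 12, 11 were centered in introns, a share not counted over all regions. Each of the 12 had been joined from 2 subpeaks, the fewest in either list. So had 94.3% of control-only and 87.8% of KO-only regions of the genome. The control-only regions were 667 to 1596 bp wide, with a median of 772 bp, and the KO-only regions 784 to 2274 bp, with a median of 1006 bp.

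**Figure D1:**
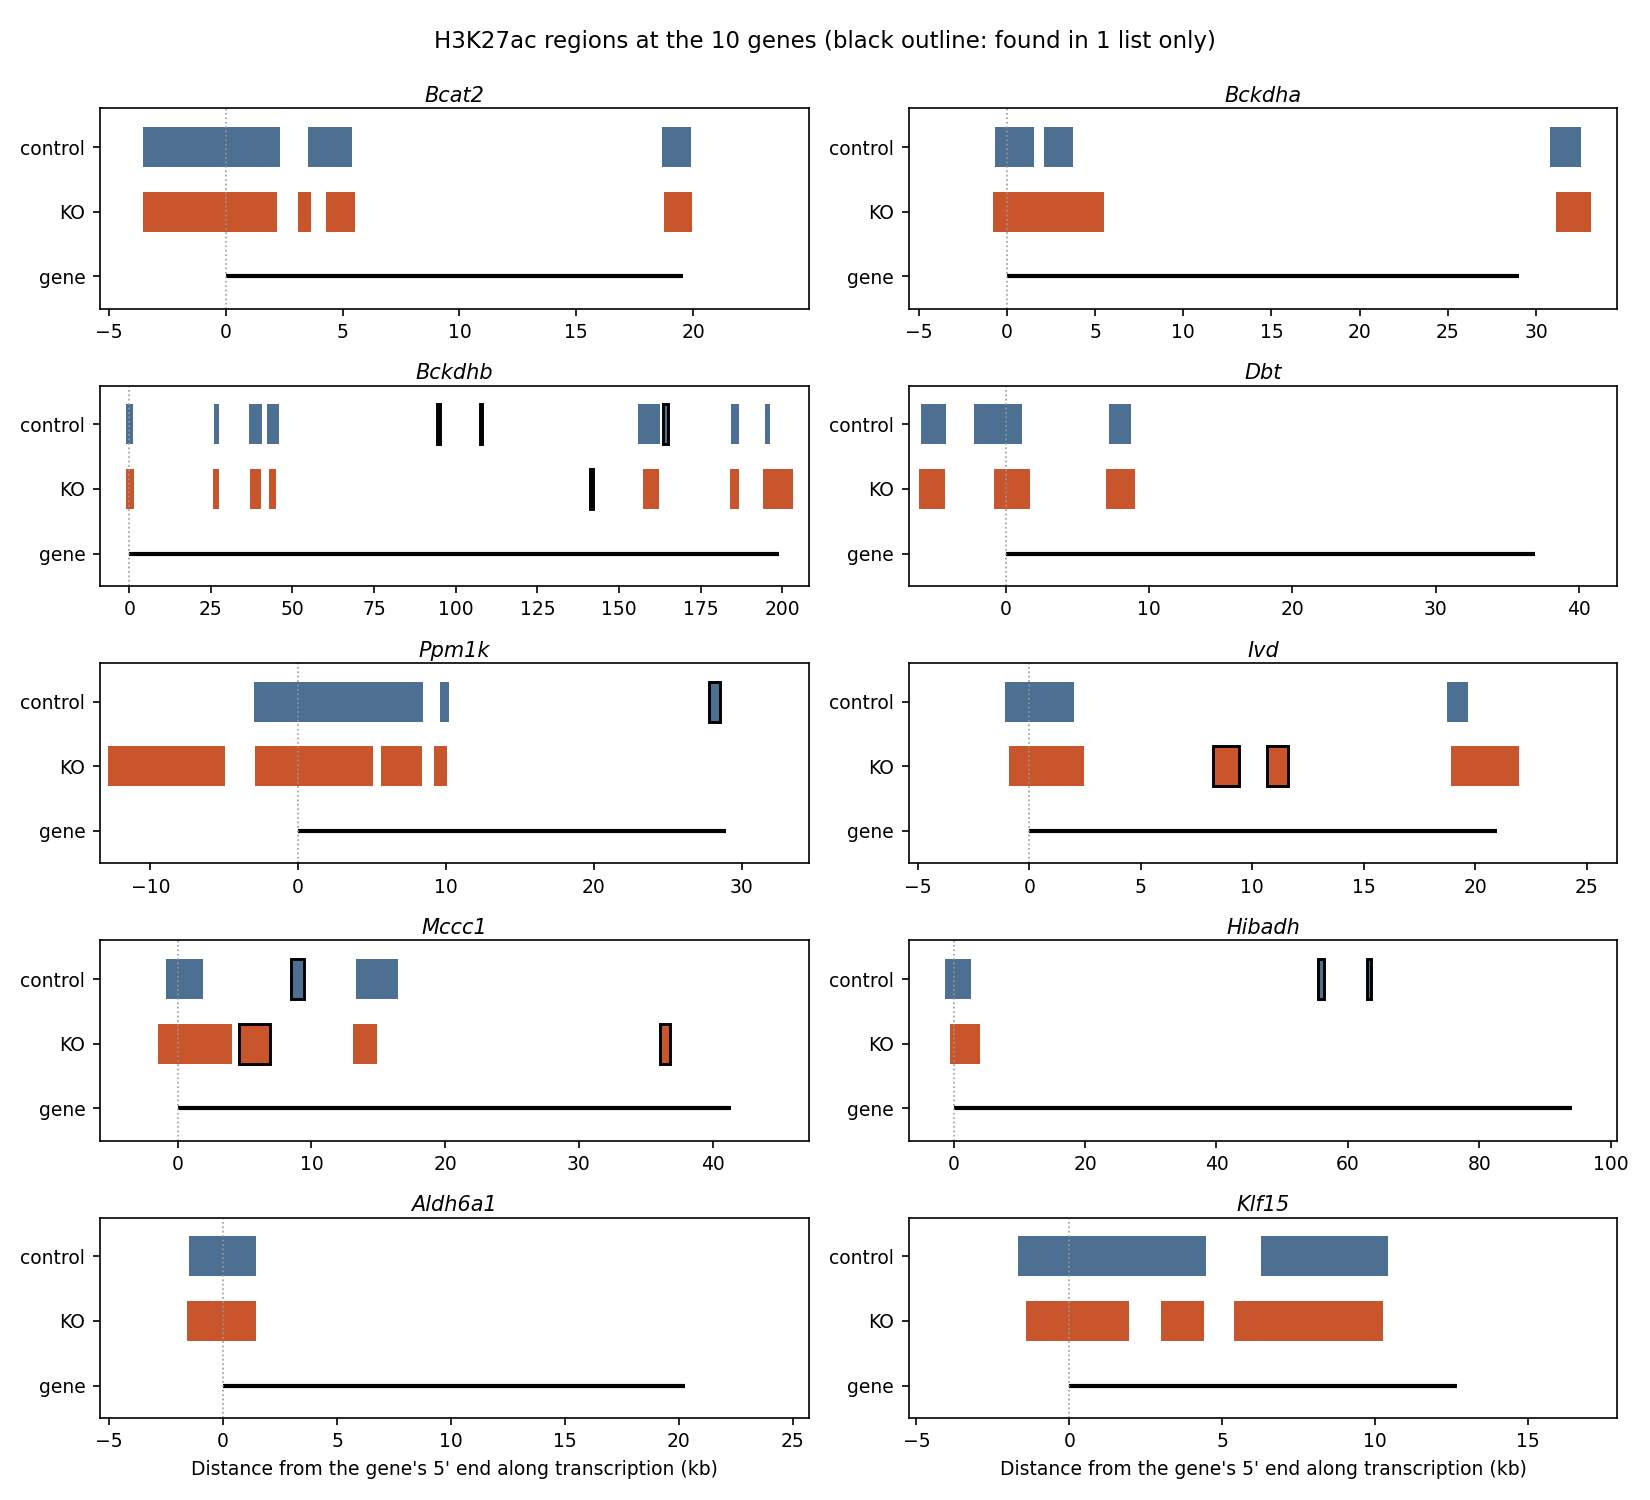
H3K27ac regions of the control list (blue) and the KO list (orange) along each gene (black bar), with the distance from the gene's 5′ end in kb along transcription on the x axis, which differs in scale between genes. Each box is 1 region, drawn whole if it overlaps the window (the control counterpart of the upstream Ppm1k region does not), and a black outline marks a region found in 1 list only. All 10 genes have a region over the 5′ end in both lists, so the 7 control-only and 5 KO-only regions lie away from it by definition.

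The genes with a KO-only region in the window were Bckdhb, Ivd and Mccc1. That is 3 of 10, against 35.2% of all protein-coding genes with a region in either list and 29.1% of those with the TSS covered in both. Bckdhb, Ppm1k, Mccc1 and Hibadh had a control-only region, which is 4 of 10, against 39.2% and 35.4% of the same backgrounds. Both counts were near their backgrounds. In covered length, meaning the bases of the window that lie in a region, 3 of 10 genes were more than 1.5-fold higher in KO, against 16.3% of the 12989 genes covered in both lists, namely Bckdha, Ivd and Mccc1. Bckdha and Mccc1 lay at the threshold, at 1.51-fold and 1.52-fold, and were below it once covered length was divided by the total of each list (log2 0.57 and 0.58), which left Ivd. None was more than 1.5-fold lower, against 8.60%. The median log2 ratio of covered length, KO over control, was 0.00 over the 10 genes and 0.08 over all genes covered in both lists. By the sign of this ratio, 5 of the 10 genes were higher and 5 lower in KO, and 58.1% of all genes were higher.

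**Figure D2:**
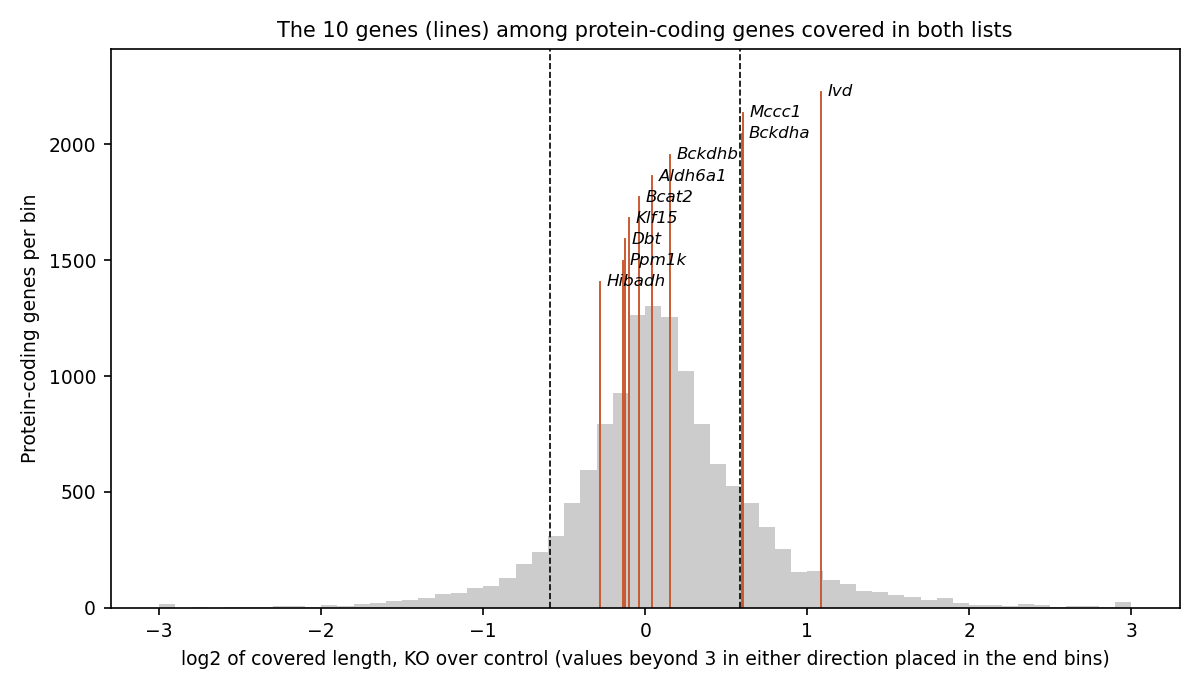
Distribution of the log2 ratio of covered length, KO over control, on the x axis, with the number of protein-coding genes per bin of 0.1 on the y axis, for the 12989 genes covered in both lists. The lines mark the 10 genes and the dashed lines a 1.5-fold difference: 7 genes lie between the dashed lines, Bckdha and Mccc1 just past the upper one, and Ivd further out.

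Bcat2, which encodes the mitochondrial aminotransferase of the first step (chr7:45570153-45589711, plus strand), had nearly the same coverage in both genotypes. Its regions covered 8967 bp in control and 8722 bp in KO, a log2 ratio of -0.04. The region over its 5′ end, 5870 bp wide in control and 5738 bp in KO, also held 3 other annotated TSSs of the gene. Within intron 1, 1 control region of 1874 bp stood opposite 2 KO regions of 553 bp and 1252 bp, the latter over the pair of TSSs that the annotation places there. A region at the last exon, exon 11, was 1223 bp wide in control and 1179 bp in KO.

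Bckdha, Bckdhb and Dbt encode the parts of the BCKDH complex particular to it: the α and β subunits of the decarboxylase, E1, and the acyltransferase core, E2. Bckdha (chr7:25629946-25658981, minus strand) had the region over the 5′ end that differed most in width among the 10 genes. It was 2182 bp wide in control and 6296 bp in KO, a 2.89-fold difference or 1.53 on the log2 scale. Of 9007 genes with the TSS covered in both lists, 2.89% had a higher ratio. The control list had another region in intron 1, of 1624 bp, which the KO region took in whole, so that at this locus 2 control regions and 1 KO region covered 3806 bp and 6296 bp. Such joining, 2 or more control regions opposite 1 KO region, was seen at 1 of the 26 shared loci of the 10 genes and at 9.35% of shared loci of the genome. Over the window the covered length was 5516 bp in control and 8332 bp in KO, or 1.51-fold. The region over the 5′ end also holds the TSS of Exosc5, and the region downstream of the gene, 1710 bp in control and 2036 bp in KO, lies at the TSS of B3gnt8, so coverage at Bckdha cannot be told apart from that of these neighbors.

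The promoter of Bckdha is shown because the region over it differed most in width. Here and below the sequence runs from 250 bases before to 50 bases after a RefSeq start (GRCm38.p6), on the strand of the gene, and capitals mark matches to the letters GGGNGNGG on either strand, a pattern bound by KLF factors. In the Bckdha window, chr7:25658712-25659011, no match was found.
Bckdha promoter: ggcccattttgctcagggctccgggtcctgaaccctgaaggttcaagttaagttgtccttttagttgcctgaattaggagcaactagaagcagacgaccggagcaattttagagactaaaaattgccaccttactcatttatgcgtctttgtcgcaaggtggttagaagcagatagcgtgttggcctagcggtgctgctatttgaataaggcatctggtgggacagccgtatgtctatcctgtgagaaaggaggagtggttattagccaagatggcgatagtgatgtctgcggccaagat
The window lay inside a region in both lists, and its RefSeq start lies 220 bp from the GENCODE 5′ end.

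Bckdhb (chr9:83925145-84124240, plus strand), the longest of the 10 genes, held the most regions: 10 in control and 8 in KO. They covered 25025 bp and 27861 bp, a log2 ratio of 0.15, which hid larger differences in both directions along the gene. The region over the 5′ end was 2122 bp wide in control and 2369 bp in KO. In intron 3 a shared region was 3544 bp wide in control and 2275 bp in KO, and in intron 9 another was 6715 bp and 5053 bp. At the 3′ end the order turned, with 1507 bp in control and 9046 bp in KO, the largest ratio of any shared locus of the 10 genes (log2 2.59), and this KO region ran on past the gene. Control-only regions lay in intron 8 at chr9:84019526-84020297 and chr9:84032423-84033164, and in intron 9 at chr9:84088571-84090166, the last 1131 bp from the nearest KO region. The KO-only region lay in intron 8, at chr9:84066147-84067152, 13721 bp from the nearest control region. Counted over the gene body alone, the ratio of Bckdhb was -0.07, since the added length at the 3′ end then counts only in part.

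Dbt (chr3:116513070-116549981, plus strand) had 3 regions in each list, all shared, with 5755 bp covered in control and 5287 bp in KO (log2 -0.12). The region over its 5′ end was narrower in KO, 2508 bp against 3354 bp. The difference lay upstream, since in control the region was centered 499 bp upstream of the 5′ end, and in KO 471 bp downstream of it.
The region in intron 2, over another annotated TSS, was 1552 bp wide in control and 2001 bp in KO. The region upstream of the gene sits on the TSS of Rtca, a neighboring gene.

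Ppm1k (chr6:57506502-57535468, minus strand), the gene of the phosphatase that activates BCKDH, had the widest region over a 5′ end among the 10 genes in both lists. This region was 11467 bp wide in control and 7930 bp in KO (log2 -0.53). Most of the remaining length was still covered in KO, by a separate region of 2828 bp further into intron 1. A control locus in 1 piece opposite 2 or more KO regions was found at 3 of 26 shared loci, those of Bcat2, Ppm1k and Klf15, and at 4.67% of shared loci of the genome. The covered length over the window was 12840 bp in control and 11692 bp in KO. A control-only region of 729 bp lay in the last exon, exon 7, at chr6:57506926-57507654. A region upstream of Ppm1k, shared and of 7857 bp in KO, reached only 18 bp into the window, and counting it whole turned the log2 ratio of Ppm1k from -0.14 to 0.61. In the control list 7725 bp of it were covered as well, but outside the window, so they were not counted.

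**Figure D3:**
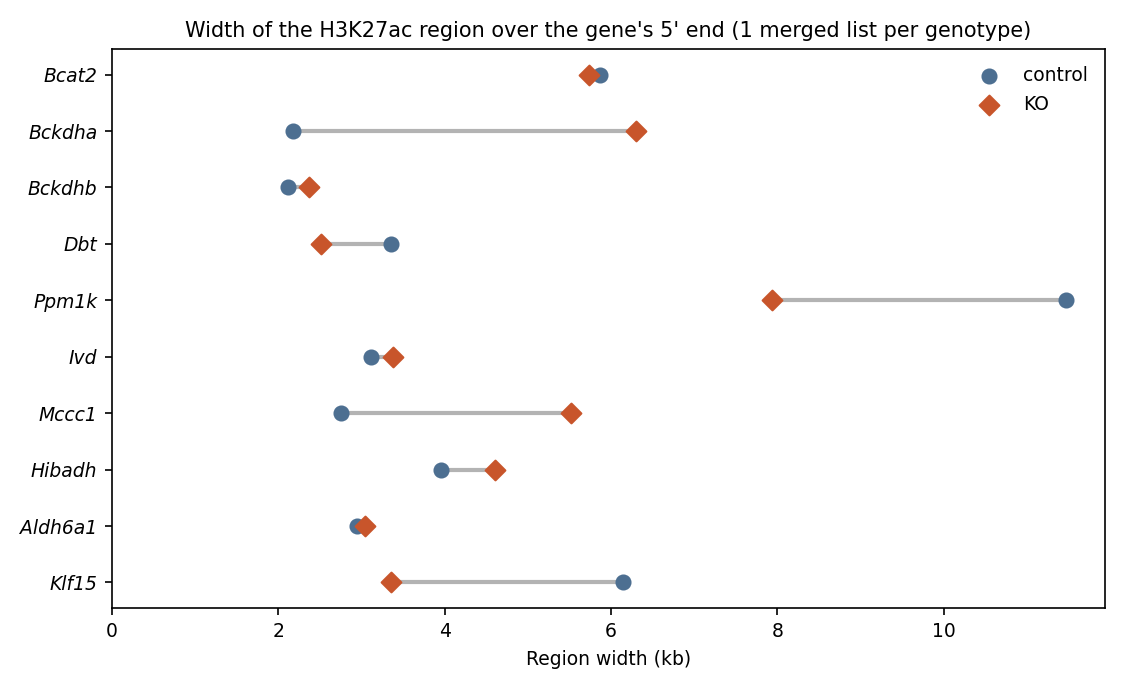
Width in kb (x axis) of the H3K27ac region over the 5′ end of each gene (y axis), in the control list (blue circles) and the KO list (orange diamonds), 1 value each with no replicate error. Bckdha and Mccc1 are more than 1.5-fold wider in KO, Klf15 more than 1.5-fold narrower, and the other 7 genes lie within 1.5-fold.

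Ivd and Mccc1 belong to the leucine arm, in which isovaleryl-CoA dehydrogenase (Ivd) oxidizes the product of BCKDH and 3-methylcrotonyl-CoA carboxylase, whose α subunit is the product of Mccc1, adds a carboxyl group. Ivd (chr2:118861954-118882909, plus strand) had the highest ratio of the 10 genes, with 4021 bp covered in control and 8545 bp in KO. This was a 2.13-fold difference or 1.09 on the log2 scale, and 5.28% of genes had a higher one. The region over its 5′ end hardly took part, at 3110 bp in control and 3375 bp in KO. The added length came from 2 KO-only regions and from the 3′ end. The KO-only regions lay in intron 3 (chr2:118870173-118871342, 1170 bp) and intron 5 (chr2:118872624-118873535, 912 bp). The former ended 36 bp from the start of a processed transcript of Ivd (ENSMUST00000141836), and the latter held the start of a retained-intron transcript (ENSMUST00000140282). At the last exon, exon 12, the shared region was 911 bp wide in control and 3088 bp in KO (log2 1.76). Having 2 or more KO-only regions and no control-only region was a property of Ivd alone among the 10 genes, and of 3.23% of genes with a region in either list.

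Mccc1 (chr3:35959312-36000678, minus strand) had 6813 bp covered in control and 10374 bp in KO, or 1.52-fold. The region over its 5′ end was 2750 bp wide in control and 5519 bp in KO, a 2.01-fold difference, and 8.07% of genes had a higher ratio. This region also holds a TSS of Mccc1os, the nearest to its center in both lists, so its width cannot be assigned to Mccc1 alone. Bckdha and Mccc1 were the members whose region over the TSS was more than 1.5-fold wider in KO, 2 of 10, against 18.7% of genes with the TSS covered in both lists. A KO-only region in intron 3 (chr3:35993809-35996082, 2274 bp) followed close on the region over the 5′ end and held the start of a retained-intron transcript (ENSMUST00000198515). A smaller one lay in intron 16 (chr3:35963836-35964619, 784 bp). In the opposite direction, a region in intron 4 (chr3:35991235-35992195, 961 bp) was control-only and a shared region in intron 7 was 3102 bp wide in control and 1797 bp in KO. Over the 10 genes, 2 of 5 KO-only regions held an annotated TSS, against 14.2% of KO-only regions of the genome, and 0 of 7 control-only regions did, against 6.95%. The regions of the genome were not limited to gene windows, as those of the 10 genes are by the rule. No difference can therefore be read from these shares. The RefSeq promoter of Mccc1, at chr3:36000629-36000928, held 3 matches to the KLF letters, of which 2 overlap.
Mccc1 promoter: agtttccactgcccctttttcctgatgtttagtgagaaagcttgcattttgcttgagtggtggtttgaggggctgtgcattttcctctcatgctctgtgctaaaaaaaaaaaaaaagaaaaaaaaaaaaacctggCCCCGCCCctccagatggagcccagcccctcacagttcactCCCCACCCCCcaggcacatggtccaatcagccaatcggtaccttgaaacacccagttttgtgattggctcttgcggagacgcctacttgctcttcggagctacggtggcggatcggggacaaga
This window lay inside a region in both lists.

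**Figure D4:**
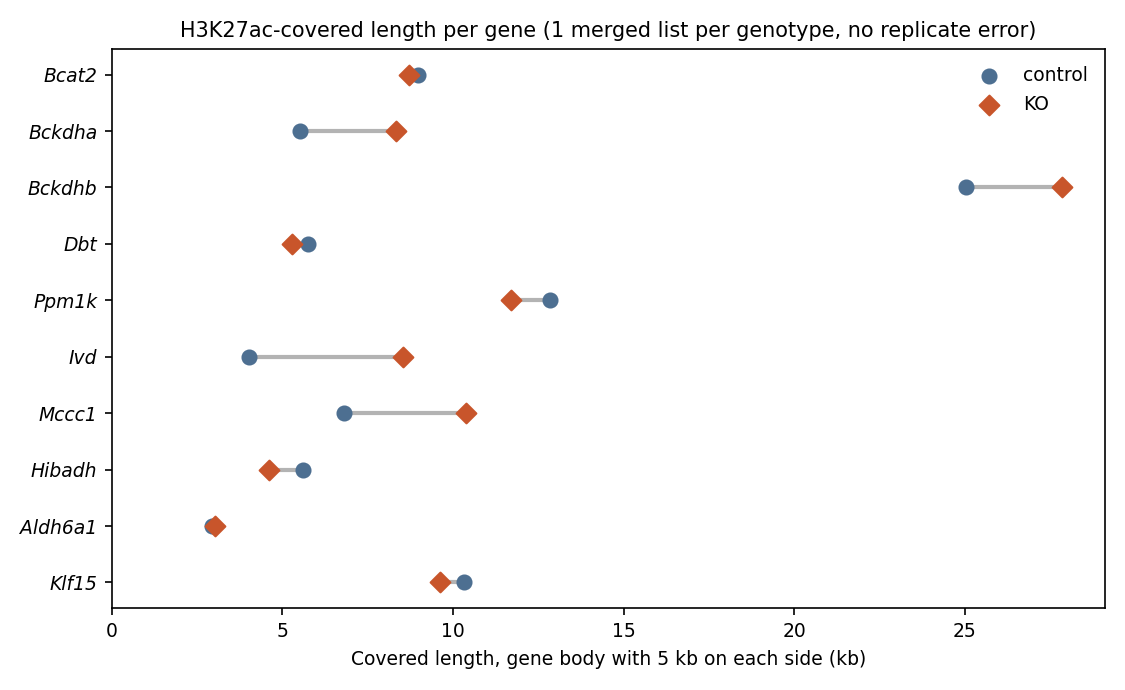
Covered length in kb (x axis) in the window of each gene (y axis), in the control list (blue circles) and the KO list (orange diamonds), 1 value each with no replicate error. Ivd is 2.13-fold higher in KO, Bckdha and Mccc1 lie just past 1.5-fold, and none of the 10 genes is more than 1.5-fold lower.

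Hibadh and Aldh6a1 act in valine breakdown, as 3-hydroxyisobutyrate dehydrogenase and methylmalonate-semialdehyde dehydrogenase. Hibadh (chr6:52546228-52640389, minus strand) had the lowest ratio of covered length among the 10 genes, with 5599 bp in control and 4607 bp in KO (log2 -0.28). All of the KO length lay in the region over the 5′ end, which was wider in KO, 4607 bp against 3959 bp. The difference came from 2 control-only regions in intron 4, at chr6:52576797-52577463 (667 bp) and chr6:52584000-52584972 (973 bp), 58959 bp and 51450 bp from the nearest KO region. The region over the 5′ end also holds a TSS of Gm24355, the nearest to its center in both lists, so it cannot be assigned to Hibadh alone. Aldh6a1 (chr12:84430717-84451004, minus strand) had 1 region in each list, over its 5′ end, of 2945 bp in control and 3037 bp in KO. This region also holds the TSS of Lin52 and cannot be assigned to either gene.

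Klf15 (chr6:90462576-90475238, plus strand), which encodes the transcription factor, was the most densely covered of the 10 genes, with 45.5% of its window covered in control and 42.4% in KO. The covered length was 10309 bp in control and 9608 bp in KO (log2 -0.10). The region over its 5′ end was 6143 bp wide in control and 3353 bp in KO, a log2 ratio of -0.87, and it was the only member whose TSS region was more than 1.5-fold narrower, 1 of 10, against 7.48% of genes. The KO list had a gap in intron 1 and a further region of 1398 bp beyond it, so that the control region stood opposite 2 KO regions that together covered 4751 bp. The gap took in an annotated TSS within the gene, and another, at 90466400, lay in the smaller KO region. In intron 2 the KO region was the wider, 4857 bp against 4166 bp. The promoter of Klf15, chr6:90462326-90462625, held 47 CG pairs, the most among the 9 members found in the RefSeq promoter table (without Dbt), and 3 matches to the KLF letters. Among promoters not printed, at the RefSeq start nearest the 5′ end, Ivd also had 3 such matches and Bckdhb 2. Ppm1k, Hibadh and Aldh6a1 had 1 each, and Bcat2 had 0.
Klf15 promoter: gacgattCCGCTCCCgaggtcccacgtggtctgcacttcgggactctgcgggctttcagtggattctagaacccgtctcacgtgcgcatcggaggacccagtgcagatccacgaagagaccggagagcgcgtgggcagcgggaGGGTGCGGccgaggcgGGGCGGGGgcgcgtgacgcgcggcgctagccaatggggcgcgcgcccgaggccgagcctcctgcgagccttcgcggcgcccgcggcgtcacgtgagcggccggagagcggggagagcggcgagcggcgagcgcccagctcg
Its 300 bases lay inside a region in both lists.

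Letters bound by factors known from the heart were counted in these regions. In the central 300 bp of each region, the KLF letters GGGNGNGG were found in 8 of 33 control regions, or 24.2%, against 26.6% of the whole list, and in 12 of 34 KO regions, or 35.3%, against 28.6%. They were also found in 49.5% of 32851 RefSeq promoter windows, so a match is common. The letters TCAAGGTCA, bound by estrogen-related receptors (ERRs), were found in the central part of 0 of 33 control and 1 of 34 KO regions, against 0.973% and 1.04% of the whole lists, and in 0.423% of promoter windows. The KO match, in intron 1 of Bckdhb, also lay in the control region there, outside its central part. The shorter letters AAGGTCA, which the ERR letters contain, were found in 3 control regions, or 9.09% against 6.83% of the whole list, and in 2 KO regions, or 5.88% against 7.15%. The MEF2 pattern was found in 0 control and 1 KO regions of the 10 genes, against 1.63% and 1.56% of the whole lists. The GATA letters AGATAAG were found in 0 regions of the 10 genes in either list, against 4.69% and 4.42% of the whole lists, and a glucocorticoid receptor pattern also in 0, against 0.590% and 0.674%.

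A search of the whole regions, chosen after the central counts were seen, found the ERR letters 3 times in control regions of the 10 genes, or 33.8 per Mb, and 6 times in KO regions, or 56.1 per Mb. The whole lists held 32.7 and 33.6 matches per Mb. The other 5 patterns were searched in the same way. The KLF letters were found 1534 and 1646 times per Mb in control and KO regions of the 10 genes, against 1756 and 1850 in the whole lists, and the GATA letters 90.2 and 84.2 times, against 153 and 151. The AAGGTCA letters were found 180 and 243 times per Mb, against 226 and 231, the MEF2 pattern 22.6 and 28.1 times, against 37.9 and 36.1, and the glucocorticoid receptor pattern 33.8 and 37.4 times, against 20.9 and 20.2. The MEF2 and glucocorticoid receptor rates rest on 2 to 4 matches per list, as the ERR rates do on 3 and 6. The length searched was 88658 bp in control and 106926 bp in KO. The KO length takes in whole the 7857 bp region upstream of Ppm1k, which reaches 18 bp into the window, whereas its control counterpart is left out. None of the 6 ERR sites lay in that region, but matches to other patterns did. Part of the difference between control and KO rates therefore comes from the window rule, and its size was not tested. All sites are shown with 10 bases on each side, on the strand of the letters in capitals, because 3 of them were covered in both lists and 3 in the KO list alone.
Bckdha, intron 1, chr7:25655513-25655541: gagcaggagtTCAAGGTCAcgctcaggtt
Bckdhb, intron 1, chr9:83925744-83925772: tttgattttcTCAAGGTCAcgagacaggt
Bckdhb, intron 1, chr9:83951690-83951718, minus strand: catgaccctcTCAAGGTCAtcaaaagctt
Ivd, exon 12, chr2:118882074-118882102: cttgacttttTCAAGGTCAgaattggagc
Mccc1, intron 3, chr3:35995361-35995389: ctctgtgagtTCAAGGTCAgtgttatcta
Hibadh, intron 1, chr6:52637113-52637141: tcttgtaagtTCAAGGTCAactttagtcc
The sites of Bckdha and Bckdhb lay in regions of both lists. The Ivd site, in the 3′ UTR, lay in the part of the last region that was covered in KO alone, the Mccc1 site in the KO-only region of intron 3, and the Hibadh site in the part of the region over the 5′ end that was covered in KO alone. The sites of Bckdha, Mccc1 and Hibadh lie in repeats masked in the reference, as do 40.0% of all matches in the control list and 39.2% in the KO list. These letters were matched by sequence alone, and binding was not measured.

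The rest of the pathway was described by a list of 18 genes. Of these, 17 were covered in both lists, and Bcat1, the cytosolic aminotransferase, had 0 regions in either. The TSS was covered in both lists for 16 genes and in 1 list only for 0 genes. A KO-only region was found at 7 of the 17 covered genes and a control-only region at 6 of the 17, near the backgrounds of 35.2% and 39.2%. Covered length was more than 1.5-fold higher in KO for 3 of the 17 genes and more than 1.5-fold lower for 2, near the backgrounds of 16.3% and 8.60%. The median log2 ratio of the 17 genes was 0.30, against 0.00 for the 10 members and 0.08 for all genes, with 11 genes higher and 6 lower in KO.

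The highest ratios were those of Pccb, a subunit of propionyl-CoA carboxylase (2626 bp in control and 5391 bp in KO), of Mcee, the epimerase that follows it (3180 bp and 5779 bp), and of Slc25a44, the mitochondrial BCAA carrier (3155 bp and 5667 bp). Their log2 ratios were 1.04, 0.86 and 0.84. As at Ivd, the region over the 5′ end of Pccb was of similar width in both lists, 2626 bp and 2518 bp, and the added length lay in 2 KO-only regions. The lowest ratio was that of Dld, the E3 subunit that BCKDH shares with other dehydrogenases, with 4177 bp in control and 1794 bp in KO (log2 -1.22). Pcca, the other subunit of propionyl-CoA carboxylase, followed with 12476 bp and 8046 bp (log2 -0.63). Echs1, the enoyl-CoA hydratase that acts in several arms, had 4461 bp and 3681 bp (log2 -0.28). Genes of 1 enzyme or complex lay on both sides of 0, as with Pccb and Pcca, and with Bckdha and Dld. The sign of Dbt was not stable, at log2 -0.12 over the window and 0.45 over the gene body alone. Coverage at Bckdha is also shared with its neighbors.

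**Figure D5:**
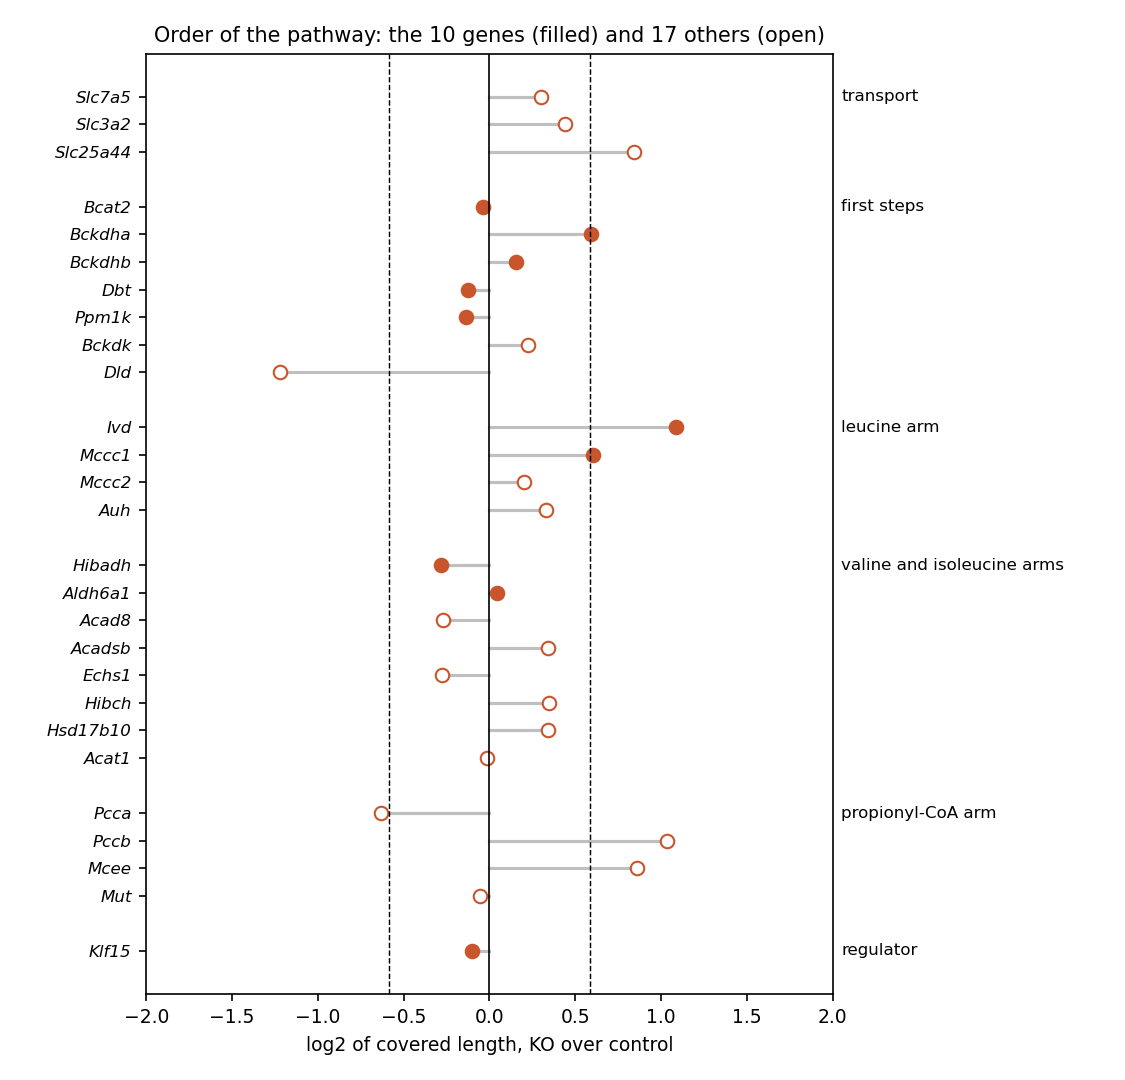
The log2 ratio of covered length, KO over control (x axis), for the 10 members (filled) and the 17 other pathway genes covered in both lists (open), in the order of the pathway from transport to the propionyl-CoA arm, with Klf15 last (y axis). Dashed lines mark a 1.5-fold difference, which Bckdha, Ivd, Mccc1, Slc25a44, Pccb and Mcee pass upward, and Dld and Pcca downward.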

How the data were processed

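CUT&RUN for H3K27ac was carried out on CMs of csNrip1-/- mice and littermate controls, with 3 H3K27ac and 3 IgG samples per genotype. The authors aligned reads with Bowtie2 2.4.2 to GRCm38, removed duplicates with SAMtools, called broad regions per replicate against IgG with HOMER 4.11.1 and merged those found in at least 2 of 3 replicates. The deposited lists give, for each merged region, both end positions, a name that ends in its number of subpeaks, and a score. The deposited score was the same for every region and was not used. Neither signal nor a value per replicate was used here, so depth and replicate error are unknown, and a comparison of lists can miss a change of signal inside a shared region. Since regions were merged from replicates, width moves with how much was called in each.

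Chromosomes 1 to 19, X and Y were used, and 21 control and 14 KO regions elsewhere were dropped. Starts were read as counted from 0 and are printed counted from 1. The 10 members, the 18 other pathway genes, the marker genes and the motifs were chosen with earlier results of these data known. The text names all members, Nrip1, and the 3 highest and 3 lowest of the other pathway genes. Bcat1 is named for having no region, after its values were seen. The result for 1 further pathway gene is not reported here, and it was left out of the counts. Counts were set beside those of all 21938 protein-coding genes of GENCODE M21, and no list was tested. Motifs were matched on both strands, and 0 regions ran past the end of a chromosome of the GRCm38.p6 sequence. The overlap step was tested on simulated data and found 2000 of 2000 regions made for 1 list. Alternatives changed the overlap, the width or subpeaks required, the number of regions, the window and the scale. Python 3.11.15, numpy 2.4.6, pysam 0.24.0 and matplotlib 3.10.9 were used.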

Additional observations from a re-analysis of the deposited data

How the results depend on the processing

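No paired analysis was possible because each list pools the replicates of its genotype, and for the same reason no replicate could be left out. The 10 genes kept the TSS in a region of both lists under each alternative for the TSS. Each alternative includes the 5′ end of the gene, so this outcome was fixed in advance. The genes with a KO-only region numbered 3, and became 7 with a reciprocal overlap of 50%, 5 with regions of 3 or more subpeaks and 5 with windows extended by 20 kb. The genes with a control-only region numbered 4, and 1 with regions at least 1000 bp wide. The KO-only regions numbered 5, and became 9 where 50% of the region had to overlap and 12 with a reciprocal overlap. The control-only regions numbered 7, and became 12 with a reciprocal overlap, 1 at 1000 bp or wider, 4 with 3 or more subpeaks, 3 with equal numbers of the widest regions, 11 with 20 kb and 4 by nearest TSS. The median log2 ratio of covered length was 0.00, and 0.13 with regions at least 1000 bp wide. Ivd stayed past 1.5-fold, with log2 ratios of 0.68 to 1.30 over the alternatives for its covered length. Bckdha dropped under 1.5-fold with 20 kb (0.47) and after division by the total of each list (0.57), and Mccc1 over the gene body alone (0.58) and after that division (0.58). Ratios within 1.5-fold changed sign for Dbt over the gene body (0.45), for Bckdhb over the gene body (-0.07), for Hibadh at 1000 bp or wider (0.22), and for Ppm1k with equal numbers of regions (0.03) and with whole regions, where it passed 1.5-fold (0.61). With regions of 3 or more subpeaks, a setting planned for the counts, the ratios were -2.11 for Dbt, 0.96 for Bckdhb, 0.22 for Hibadh and 1.88 for Bckdha, and Aldh6a1 had none, since it had no such region in KO. The move of Ppm1k with whole regions came from the upstream region, counted whole in KO and not at all in control. The cause of the other moves, beyond what is given above for Bckdhb, was not tested.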
